A study of Mus musculus with 6 samples.

Results

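A set of 9 genes of blood coagulation and fibrinolysis was followed in tumor-associated macrophages (TAMs) of a mouse melanoma: F3, F5, F7, F10, F13a1, Plau, Plaur, Serpinb2 and Thbs1. They were picked by name, as 9 of the 23424 genes in the count tables, with their differences between the F4/80high and F4/80low subsets in these same libraries already known. Those differences are therefore given as a description with their errors, with no test, and they support nothing by themselves. All 9 passed the count filter used for testing, which left 14645 protein-coding genes.

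The macrophages came from YUMM1.7 melanomas, a murine melanoma line injected into the dermis, grown in wild-type female C57Bl/6J mice that were 8 weeks old at tumor induction and received no treatment. On day 21 the cells were sorted as live CD45+, lineage-negative, CD11b+ and either high or low for F4/80, a macrophage surface protein encoded by Adgre1. Each subset had 3 poly-A RNA-seq libraries from 3 independent experiments, and each library was a pool of 10 tumors, so differences between animals within a pool cannot be seen. Replicates 1 and 2 made up batch 1 and replicate 3 made up batch 2, so that batch 2 is a single experiment and cannot be told apart from it.

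Coagulation starts when tissue factor, the product of F3, binds factor VII, and the complex activates factor X. Factor Xa with its cofactor factor V makes thrombin, thrombin makes fibrin, and factor XIII crosslinks the fibrin. Fibrin is removed by plasmin, which urokinase (Plau) bound to its receptor (Plaur) produces from plasminogen and which inhibitors such as plasminogen activator inhibitor 2 (Serpinb2) hold back. Macrophages are known to make many of these proteins themselves, outside the liver.

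Promoter sequence is shown for 4 of the genes because they stand at the start of the pathway (F3), at its center (F10) and in fibrinolysis (Plaur and Serpinb2). The sequences are the 250 bases before the first start site in RefSeq (build GRCm38.p6), given 5′ to 3′ on the strand of the gene. The positions are chr3:121723287-121723536 for F3, chr8:13037058-13037307 for F10, chr7:24462233-24462482 for Plaur and chr1:107511173-107511422 for Serpinb2, all on the plus strand and upstream of the transcript. Capitals mark matches on either strand to 4 searched motifs: AP-1 (TGANTCA), PU.1 (GAGGAA), the cyclic AMP response element (TGACGTCA) and the TATA box (TATAAA).
F3: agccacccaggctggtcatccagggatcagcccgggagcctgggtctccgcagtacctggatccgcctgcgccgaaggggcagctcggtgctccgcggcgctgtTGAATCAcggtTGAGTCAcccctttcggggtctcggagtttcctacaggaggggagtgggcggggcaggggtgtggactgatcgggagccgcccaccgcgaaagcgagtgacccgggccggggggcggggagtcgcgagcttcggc
F10: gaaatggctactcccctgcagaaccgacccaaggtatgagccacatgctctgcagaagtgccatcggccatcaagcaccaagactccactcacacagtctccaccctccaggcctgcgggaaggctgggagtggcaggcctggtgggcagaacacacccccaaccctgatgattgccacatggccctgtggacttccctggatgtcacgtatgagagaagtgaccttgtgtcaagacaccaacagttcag
Plaur: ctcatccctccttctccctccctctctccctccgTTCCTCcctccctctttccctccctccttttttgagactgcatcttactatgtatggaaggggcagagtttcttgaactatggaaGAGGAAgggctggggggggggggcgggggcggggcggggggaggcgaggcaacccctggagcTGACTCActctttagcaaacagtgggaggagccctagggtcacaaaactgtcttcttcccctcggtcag
Serpinb2: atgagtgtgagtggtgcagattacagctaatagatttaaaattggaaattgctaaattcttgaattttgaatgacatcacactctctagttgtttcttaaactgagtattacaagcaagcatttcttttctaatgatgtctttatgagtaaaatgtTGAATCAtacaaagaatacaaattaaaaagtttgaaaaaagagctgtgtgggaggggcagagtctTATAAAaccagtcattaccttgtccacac

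The AP-1 letters stood in the windows of F3, Plaur and Serpinb2, with 2 matches in F3, at 146 to 140 and at 135 to 129 bases before the start. Of all 32851 promoter windows of the same length, 6.75% held them. The single AP-1 match of Plaur lay 69 to 63 bases before the start and that of Serpinb2 94 to 88 bases before it. The TATA letters, present in 12.4% of all windows, stood 29 to 24 bases before the start of Serpinb2. The PU.1 letters, in 23.3% of all windows, stood in the windows of Plaur, F7 and F13a1, while no member held the cyclic AMP response element, which 1.55% of windows had. Windows of 7 of the 9 genes were analysed, while those of Plau and Thbs1 were not analysed here. A match to these letters is a description of the sequence, and the window of F10 held none of the 4.

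Depth differed between the batches. The libraries held 30292061 to 43604373 counts in batch 1 and 16045281 and 16204810 in batch 2, where 3 features (Gm15564, Gm23935 and Lars2) accounted for 16.1 and 17.1% of all counts against 0.378 to 0.609% in batch 1. Adgre1 was at 273, 539 and 360 CPM in F4/80high replicates 1, 2 and 3 and at 243, 327 and 184 CPM in F4/80low. It was higher in F4/80high in each replicate pair, but the ranges of the subsets overlapped (log2 fold change 0.67, SE 0.30, edgeR adjusted p = 0.66). CPM are counts relative to library size, scaled by trimmed mean of M values (TMM) factors, and a log2 fold change is F4/80high over F4/80low from the edgeR fit with batch as a term.

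F10, which encodes factor X, showed the most even difference of the 9 genes over the replicate pairs. It lies at chr8:13037308-13056676 in GRCm38. Its level was 63.8, 39.6 and 65.2 CPM in F4/80high replicates 1, 2 and 3 and 171, 107 and 219 CPM in F4/80low. All F4/80low libraries were above all F4/80high libraries. Within the pairs F10 was 2.68-fold, 2.70-fold and 3.36-fold higher in F4/80low, and the log2 fold change was -1.53 (SE 0.28), or -1.53 (SE 0.20) with the replicate as a block.

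F5, the gene of factor V, the cofactor that factor Xa needs to make thrombin, also had no overlap between the subsets. Its level was 100, 37.0 and 138 CPM in F4/80high and 205, 218 and 274 CPM in F4/80low. The F4/80low libraries were close to one another, whereas F4/80high replicate 2 was well below the other two. The F4/80low level was accordingly 5.89-fold higher in pair 2 but 2.05-fold and 1.99-fold higher in pairs 1 and 3, with a log2 fold change of -1.42 (SE 0.36).

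F3 and F7, which encode the tissue factor and factor VII that begin the cascade, were both at low levels. F3 had 4.85, 5.85 and 2.38 CPM in F4/80high and 14.9, 8.51 and 3.08 CPM in F4/80low. The subsets overlapped, although F3 was lower in F4/80high within each pair, by 3.08-fold in pair 1 and by 1.46-fold and 1.30-fold in pairs 2 and 3. The log2 fold change of F3 was -0.91 (SE 0.42). F7 had 6.29, 9.52 and 1.30 CPM in F4/80high and 8.08, 8.04 and 2.51 CPM in F4/80low. It was lower in F4/80high in pairs 1 and 3 but not in pair 2, with a log2 fold change of -0.29 (SE 0.43), smaller than its error. In batch 2 these values rested on 22 and 27 counts of F3 and 12 and 22 counts of F7, so a moderate difference there was not detectable at this depth.

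F7 and F10 are neighbors on chromosome 8, with 1498 bases between the end of F7 (chr8:13026034-13035809) and the start of F10, and no gene of the tables between them. They did not vary together: the correlation of their log2 levels over the 6 libraries was -0.15 (Pearson r, n = 6, libraries that share batch and depth). The level of F10 per length was 2.83 to 34.2 times that of F7 in F4/80high and 9.06 to 59.4 times in F4/80low.

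F13a1, the gene of the catalytic A subunit of factor XIII, was dominated by 1 library. It had 308, 2073 and 164 CPM in F4/80high and 407, 421 and 155 CPM in F4/80low. F4/80high replicate 2 was far above every other library, and the remaining libraries of the subsets overlapped. The log2 fold change of 1.05 (SE 0.60) became -0.24 without F4/80high replicate 2, so the direction rested on that library.

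**Figure D1:**
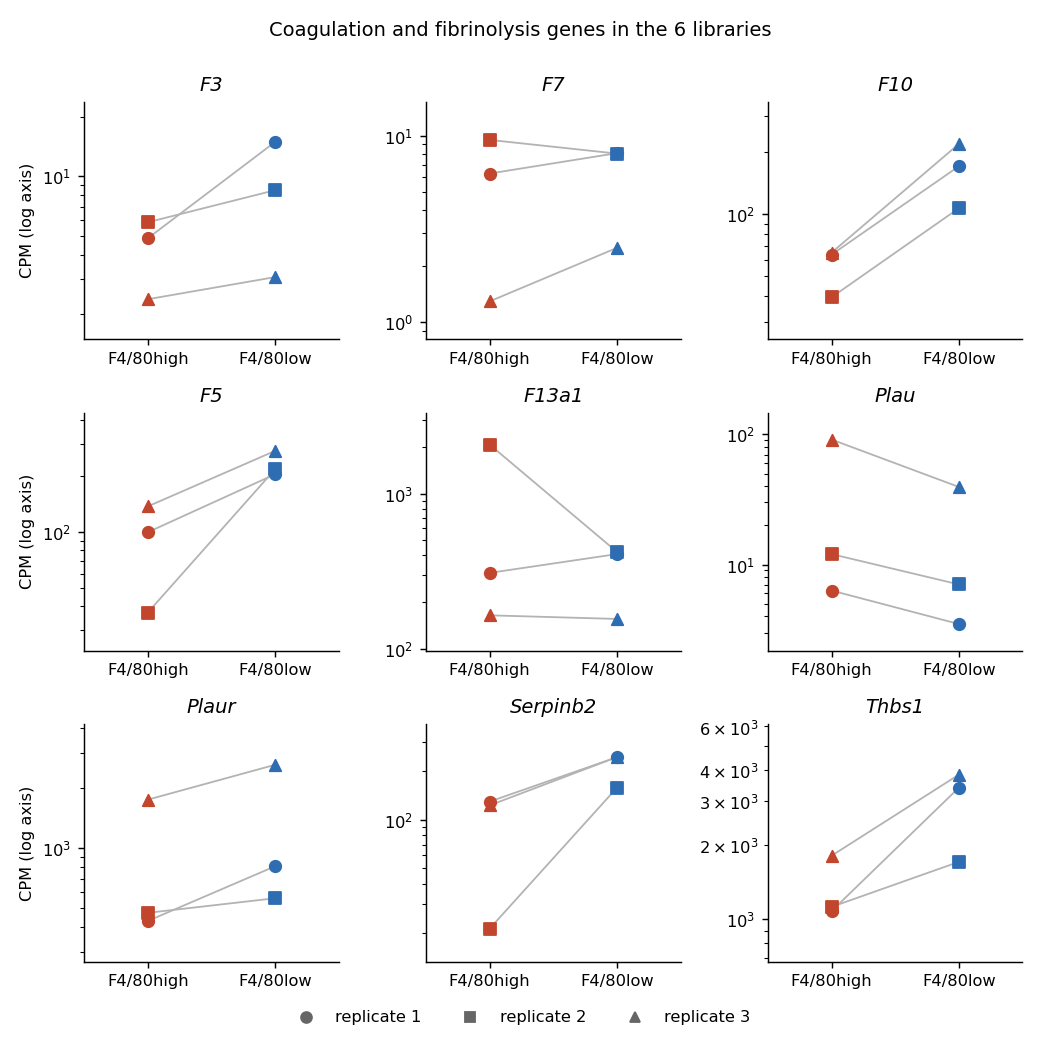
Level of each of the 9 genes in CPM (vertical log axes with different ranges) in F4/80high (red) and F4/80low (blue) libraries, with gray lines joining libraries of the same replicate number. F10, F5 and Serpinb2 have all F4/80low points above all F4/80high points, Plau falls from F4/80high to F4/80low along each line, and the F13a1 point of F4/80high replicate 2, at 2073 CPM, stands apart.

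Among the fibrinolysis genes, Plau was the only one of the 9 that was higher in F4/80high in each pair. Plau, which encodes urokinase, had 6.31, 12.03 and 91.4 CPM in F4/80high and 3.49, 7.03 and 39.5 CPM in F4/80low. The subsets overlapped, also within batch 1, while within the pairs Plau was 1.81-fold, 1.71-fold and 2.31-fold higher in F4/80high. The log2 fold change was 0.94 (SE 0.36).

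Plaur, the gene of the urokinase receptor, moved the other way. It had 431, 473 and 1747 CPM in F4/80high and 810, 560 and 2613 CPM in F4/80low. The subsets overlapped, but Plaur was lower in F4/80high in each pair, by 1.88-fold, 1.18-fold and 1.496-fold, and the log2 fold change was -0.59 (SE 0.23). The ratio of receptor to urokinase per transcript length was thus 114.5, 66.0 and 32.1 in the F4/80high libraries, against 389, 134 and 111 in the F4/80low ones, higher in F4/80low in each pair but with overlapping ranges.

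Serpinb2, whose product inhibits urokinase, had 129, 21.1 and 122 CPM in F4/80high and 243, 157 and 243 CPM in F4/80low. The subsets did not overlap, and F4/80high replicate 2 was again the lowest library, as it was for F5. Serpinb2 was 7.43-fold higher in F4/80low in pair 2 and 1.88-fold and 1.99-fold higher in pairs 1 and 3. The log2 fold change was -1.27 (SE 0.54), and it lay at -0.82 without F4/80high replicate 2 and at -2.23 without F4/80high replicate 1.

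Thbs1 encodes thrombospondin-1, a matrix protein that platelets and macrophages release and that binds fibrin and the receptors CD36 and CD47. It had 1079, 1122 and 1805 CPM in F4/80high and 3396, 1705 and 3833 CPM in F4/80low. The ranges met only because F4/80low replicate 2 lay just below F4/80high replicate 3. Thbs1 was 3.15-fold, 1.52-fold and 2.12-fold higher in F4/80low within the pairs, with a log2 fold change of -1.17 (SE 0.28). Thbs1 alone took 0.117 to 0.145% of the counts of the genes tested in F4/80high and 0.219 to 0.419% in F4/80low.

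**Figure D2:**
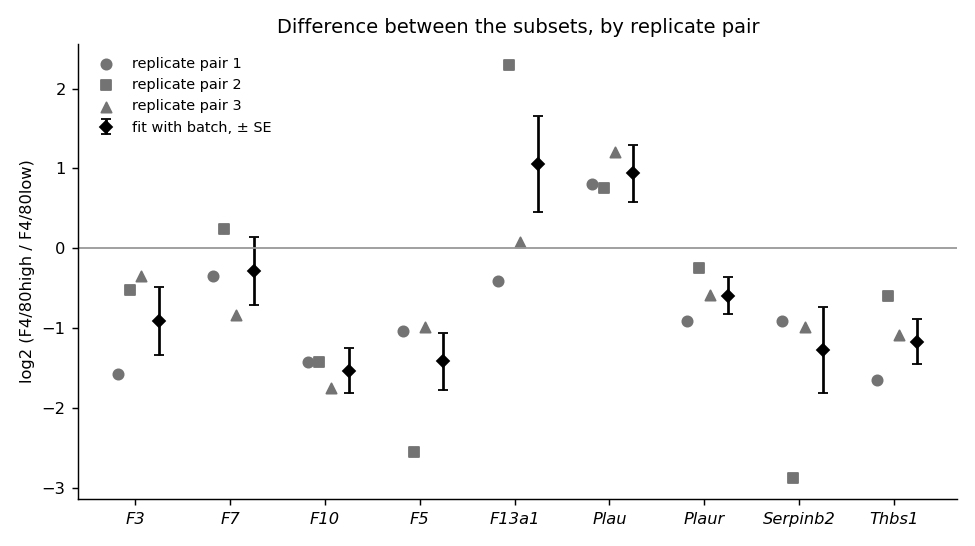
Log2 ratio of F4/80high to F4/80low (vertical axis) for each gene in replicate pairs 1, 2 and 3 (gray symbols) and from the edgeR fit with batch (black diamonds, bars are ± SE). The 3 pairs of F10 lie close together near -1.5, pair 2 is the lowest for F5 and Serpinb2, pair 1 is the lowest for F3, Plaur and Thbs1, and F13a1 spans zero.

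A gene was called where the edgeR adjusted p was under 0.05 and the log2 fold change was beyond 1 in either direction. By that rule 0 of the 9 genes were called, as were 0.0% of all genes tested. Of the 9, 6 had an unadjusted p under 0.05, against 7.6% of all genes. With the replicate number as a block, F10 was called, and 0.519% of all genes were. DESeq2 with batch called F5, F10 and Thbs1, all lower in F4/80high, against 1.16% of the 12941 genes to which it gave an adjusted p. Because the genes were chosen on this contrast, nothing is read from these counts.

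Of the 9 genes, 7 had a negative log2 fold change and 2 a positive one, with a median of -0.91 against 0.01 over all genes. Of them, 6 were lower in F4/80high in each pair, as 15.9% of all genes were, and 1 was higher in each pair, as 16.0% of all genes were. The ranges did not overlap for 3 of them, F5, F10 and Serpinb2, against 5.2% of all genes. Under 17 alternative analyses F13a1 alone changed direction, in 1 of them. In sorted bulk samples, fewer cells of a type that expresses a gene and less RNA per cell cannot be told apart.

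Markers of other cells moved with these differences. The summed level of 6 monocyte markers was 859 to 3917 CPM in F4/80high and 2389 to 7806 CPM in F4/80low, lower in F4/80high in each pair. The sums of the 8 neutrophil markers (278 to 1152 against 512 to 2755 CPM) and the 5 eosinophil markers (88.2 to 175 against 245 to 591 CPM) were likewise lower in F4/80high in each pair. So were those of the 7 mast cell and basophil markers (6.22 to 109 against 29.5 to 404 CPM) and the 6 fibroblast markers (438 to 1528 against 1048 to 1891 CPM). Single markers departed from these sums. Ly6c2, a monocyte marker, was higher in F4/80high in pair 1 (374 against 278 CPM). The fibroblast markers Dcn (142 against 135 CPM) and Pdgfra (98.8 against 91.2 CPM) were higher there in pair 3. Mcpt4 in pair 1, Epx in pair 2 and Fcer1a in pair 3 were also higher in F4/80high. The sum of the 8 macrophage markers, Adgre1 among them, was higher in F4/80high in each pair, at 3260 to 12220 against 1333 to 5412 CPM. In F4/80high that sum was mostly C1qa, C1qb and C1qc. Csf1r was lower in F4/80high in pair 1 (720 against 906 CPM) and Fcgr1 in pair 3 (173 against 206 CPM). In replicate 3, Kit made up most of the mast cell and basophil sum. It was 384 of 404 CPM for the F4/80low library and 91.4 of 99.1 CPM for the F4/80high one. Cpa3 was the next highest there, at 7.64 and 2.6 CPM. In batch 1, Tpsb2 was the highest of the 7 in each library. The part of all these markers in the differences of the 9 genes was not tested.

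Cells known for several of these transcripts were checked by their defining markers. Of the 9 platelet and megakaryocyte markers measured, Gp5 and Gp9 stayed under 0.6 CPM in all 6 libraries. The list was mixed, with 4 positive and 5 negative log2 fold changes. Itga2b (7.60, 4.43 and 1.62 CPM in F4/80high against 15.4, 8.31 and 7.42 CPM) and Gp1ba (0.43, 0.23 and 0.32 CPM against 1.73, 1.16 and 3.08 CPM) were lower in F4/80high in each pair. Ppbp (5.98, 2.80 and 0.43 CPM against 3.59, 7.20 and 0.11 CPM) was higher in F4/80high in pairs 1 and 3. Treml1 (0.10, 0.95 and 1.41 CPM against 0.40, 0.22 and 0 CPM) was higher there in pairs 2 and 3, and Gp1bb in pairs 1 and 2. The sum of the list (31.1 to 371 CPM in F4/80high, 12.8 to 139 in F4/80low) was higher in F4/80high in each pair and was mostly Pf4, which macrophages also express. Of the 6 markers of peritoneal-type macrophages, Gata6, the transcription factor that defines those cells, was at 0 in all libraries except F4/80low replicate 1 (0.35 CPM). The sum of that list, 76.1 to 366 CPM in F4/80high and 160 to 924 CPM in F4/80low, was lower in F4/80high in each pair and consisted mostly of Alox15. The 6 endothelial markers summed to between 29.6 and 80.5 CPM in the F4/80high libraries, against 35.7 to 86.7 CPM in the F4/80low ones. Only the sum was lower in F4/80high in each pair, and of the markers tested 2 had positive and 2 negative log2 fold changes. Pecam1 made up most of the sum in all libraries but F4/80high replicate 3. Kdr was higher in F4/80high in pairs 2 and 3, at 5.07 and 38.9 against 1.55 and 15.0 CPM. The 4 melanoma markers measured summed to 19.6, 23.3 and 168 CPM in the F4/80high libraries, against 15.2, 13.2 and 106 CPM in the F4/80low ones, higher in F4/80high in each pair and highest in batch 2. That sum was mostly Mitf, with Mlana at 0 in all libraries but F4/80low replicate 1. The 2 keratinocyte markers measured stayed under 2 CPM. The part of these markers in the differences of the 9 genes was not tested.

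Levels were compared between the genes only per transcript length, as CPM per kilobase (RPKM). Plaur had the highest level in 5 of the 6 libraries, all but F4/80high replicate 2, where F13a1 (528 RPKM) was above it (339 RPKM). Its mean was 633 ± 536 RPKM in F4/80high and 951 ± 803 RPKM in F4/80low (SD, n = 3). Within each library Plaur ranked between 14 and 111 among all genes tested. Thbs1 had the second highest mean in both subsets, at 220 ± 67.1 RPKM in F4/80high and 490 ± 185 RPKM in F4/80low, and overlapped Plaur in F4/80low but not in F4/80high.

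F13a1 came next in F4/80high at 216 ± 271 RPKM, where it overlapped Thbs1 and Serpinb2, and stood just below Serpinb2 in F4/80low at 83.5 ± 38.1 RPKM. Serpinb2 stood at 38.7 ± 25.7 and 91.2 ± 21.1 RPKM. In F4/80low F10 (60.7 ± 20.6 RPKM), F5 (31.3 ± 4.92 RPKM) and Plau (7.11 ± 8.47 RPKM) followed each other without overlap. In F4/80high F10 (20.6 ± 5.26 RPKM), Plau (15.6 ± 20.3 RPKM) and F5 (12.3 ± 6.85 RPKM) overlapped. F7 and F3 had the lowest mean RPKM in both subsets, at 3.07 ± 2.23 and 1.72 ± 0.71 RPKM in F4/80high and at 3.34 ± 1.72 and 3.50 ± 2.35 RPKM in F4/80low, and did not differ beyond their spread. Plau was nevertheless below both in F4/80low replicates 1 and 2, at 1.49 and 3.00 RPKM, and in TPM it had the lowest mean in F4/80low. Together the 9 genes took 0.267 to 0.649% of the counts of the genes tested in a library.

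**Figure D3:**
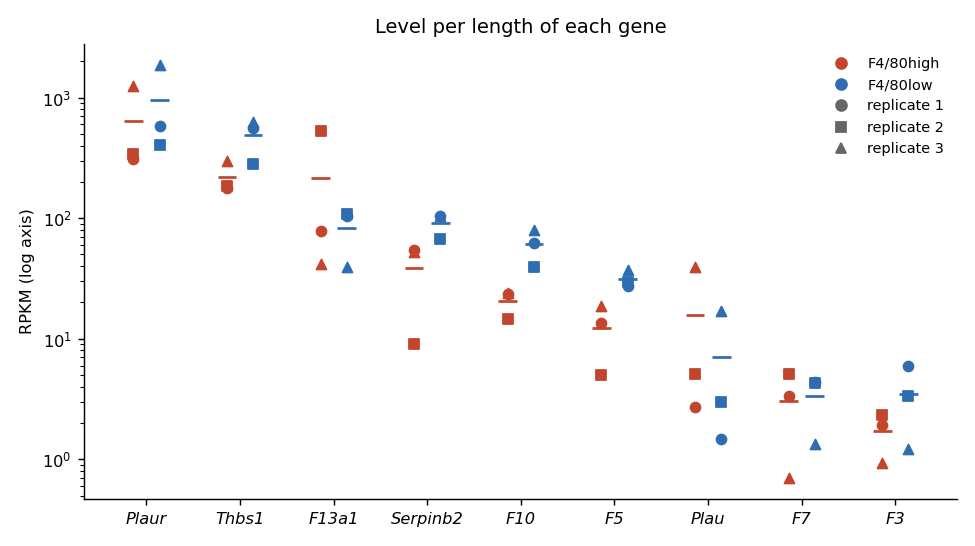
Level per transcript length in RPKM (vertical log axis) of the 9 genes, ordered by their mean over the 6 libraries, in F4/80high (red) and F4/80low (blue), with symbols for replicates and short lines for the mean of 3 libraries. Plaur and Thbs1 have the highest means and F7 and F3 the lowest in both subsets, although the F13a1 point of F4/80high replicate 2 lies above Plaur and Thbs1 of that library and Plau of F4/80low replicates 1 and 2 lies below F7 and F3, and the Plau and Plaur points of replicate 3 lie above those of replicates 1 and 2.

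The batches gave a comparison that the choice of genes had not used. In the edgeR fit, 5 of the 9 genes were called between batch 2 and batch 1, against 38.0% of all genes. Leaving out 1 library put that count at 2 to 6, so nothing about the 9 genes as a set is read from it. The fit took the F4/80high and F4/80low libraries of an experiment as independent, which was not tested. Batch 2 was 1 experiment, so the errors and p-values of the fit are too small for a comparison of experiments. Plau and Plaur were higher in batch 2, by 3.12 (SE 0.36, edgeR adjusted p = 1.9e-04) and 1.94 (SE 0.23, edgeR adjusted p = 2.1e-04) on the log2 scale. F7, F13a1 and F3 were lower, with log2 differences of -2.11 (SE 0.51, edgeR adjusted p = 0.0086), -2.08 (SE 0.69, edgeR adjusted p = 0.037) and -1.54 (SE 0.48, edgeR adjusted p = 0.029). The other four, F5, F10, Serpinb2 and Thbs1, had differences of 0.50 to 0.70 and were not called.

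These batch differences depend on the scaling, because the median gene differed by -0.35 between the batches under TMM and by -1.37 under scaling to library size alone. Relative to that median, Plau stood at 3.47 under either scaling and Plaur at 2.29 under either. F3, F7 and F13a1 stood at -1.19, -1.76 and -1.73 under TMM and at -1.18, -1.75 and -1.72 under library size alone. F5, F10, Serpinb2 and Thbs1 turned from positive to negative (-0.34 to -0.55) under library size alone, although they stayed above the median, by 0.82 to 1.03. In TPM, which shares each library out over all features by length and so includes the 3 abundant features of batch 2, Plaur was at 703 and 1002 in batch 2 and at 956 to 1797 in batch 1, so that its higher level in batch 2 did not hold on that scale. Plau was at 21.9 and 9.02 TPM in batch 2 and at 4.61 to 14.5 in batch 1, with overlapping ranges. The rank of Plaur per length among all genes, which no scaling changes, was 26 and 14 in batch 2 and 57 to 111 in batch 1.

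The calls of F3 and F13a1 between batches were lost without F4/80high replicate 3, F4/80low replicate 1 or F4/80low replicate 3, and that of F7 without F4/80high replicate 3. F13a1 was also not called without F4/80low replicate 2, with RLE normalization or with DESeq2. The call of Plaur was lost under library size alone, where its difference was 0.92, and Plau was called under all 14 alternatives.

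**Figure D4:**
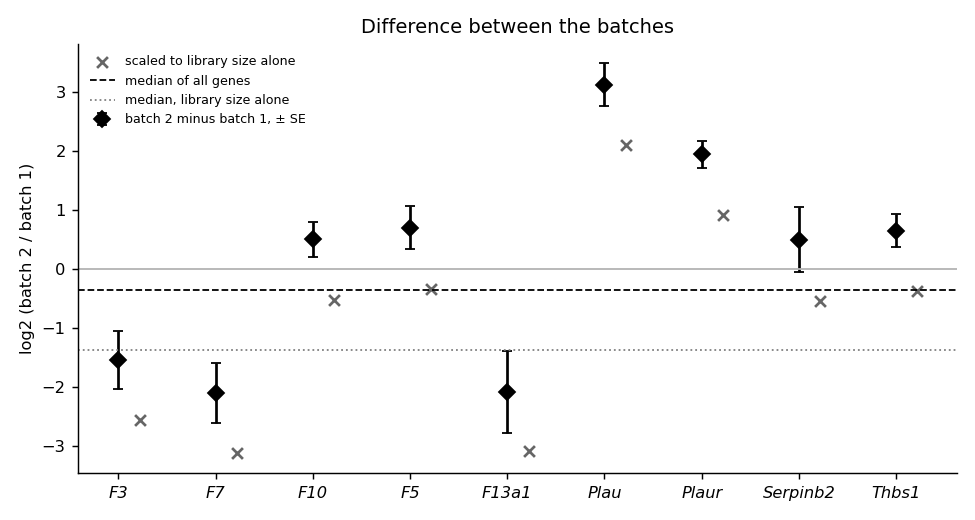
Log2 ratio of batch 2 to batch 1 (vertical axis) for each gene from the edgeR fit with TMM scaling (diamonds, bars are ± SE) and with scaling to library size alone (crosses), with the median of all genes under each as dashed and dotted lines. Plau and Plaur lie above both medians, F3, F7 and F13a1 below both, and the crosses of F5, F10, Serpinb2 and Thbs1 fall below zero.

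A further 57 genes of the pathway were listed, of which 42 were tested, 4 were below the count filter and 11 were not analysed here. None was called between the subsets by edgeR, with or without the block, or by DESeq2, and 3 had an unadjusted p under 0.05. Of the 42, 17 had a positive and 25 a negative log2 fold change, with a median of -0.14 against 0.01 for all genes. Between batches, 5 of the 42 were called higher and 7 called lower in batch 2, where 38.0% of all genes tested were called in either direction.

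Among 7 anticoagulant genes tested, Tfpi, which encodes the inhibitor of tissue factor and factor VII, was the one with an unadjusted p under 0.05. It had 12.2, 17.6 and 5.19 CPM in F4/80high and 6.50, 8.73 and 2.05 CPM in F4/80low. Tfpi was higher in F4/80high in each pair, the subsets overlapped, and the log2 fold change of 1.08 (SE 0.36) was not called (edgeR adjusted p = 0.53). The ratio of Tfpi to F3 per length, which was looked at after these values were seen, was 1.16, 1.40 and 1.01 in the F4/80high libraries, against 0.20, 0.47 and 0.31 in the F4/80low ones, without overlap. Both genes were named with their differences on this contrast known, so nothing is read from that separation. In batch 2 the ratio rested on 48 and 18 counts of Tfpi and 22 and 27 counts of F3. Thbd, the gene of thrombomodulin, the thrombin receptor that turns on protein C, had the highest level per length of the list, with a log2 fold change of -0.53 (SE 0.31, edgeR adjusted p = 0.70).

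The coagulation factors other than the 9 genes were at low counts, at most 145 in a library, which Vwf reached. Of 12 listed, 5 were tested, and F9, the gene of factor IX, had the highest mean level per length of them, with 8 to 36 counts a library. F12, the gene of factor XII, had 0, 1 and 0 counts in F4/80high and 30, 17 and 1 counts in F4/80low. It had an unadjusted p under 0.05 but was not called (edgeR adjusted p = 0.61). F2, which encodes prothrombin, had 2 to 25 counts.

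In the fibrinolysis inhibitor list, 3 genes were tested, all had negative log2 fold changes and none was called.

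Of the 9 plasminogen activation genes tested, 4 had positive and 5 negative log2 fold changes, and none was called. Eno1, an enolase that can bind plasminogen at the cell surface and that has near-identical copies in the genome, was the highest per length, at 349 to 1854 CPM in F4/80high and 394 to 1677 CPM in F4/80low. Plat, the gene of tissue plasminogen activator, was 1.32 to 6.47 times as high per length as Plau in the 4 libraries of batch 1 but 0.15 and 0.30 times as high in those of batch 2. The activator with the higher level thus differed between the batches and not between the subsets.

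Of the thrombin receptors, F2r (protease-activated receptor 1) was the highest, at 33.2 to 63.8 CPM in F4/80high and 46.8 to 57.7 CPM in F4/80low, with a log2 fold change of 0.03 (SE 0.29). Cd47, a receptor of thrombospondin-1, was at 366 to 547 CPM in F4/80high and 469 to 769 CPM in F4/80low, with a log2 fold change of -0.31 (SE 0.22, edgeR adjusted p = 0.74). Mcfd2, which helps factor V out of the secretory pathway, had a log2 fold change of 0.42 (SE 0.27, edgeR adjusted p = 0.72). Ano6, a scramblase that exposes the phosphatidylserine on which coagulation complexes assemble, had one of -0.20 (SE 0.25, edgeR adjusted p = 0.87).

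**Figure D5:**
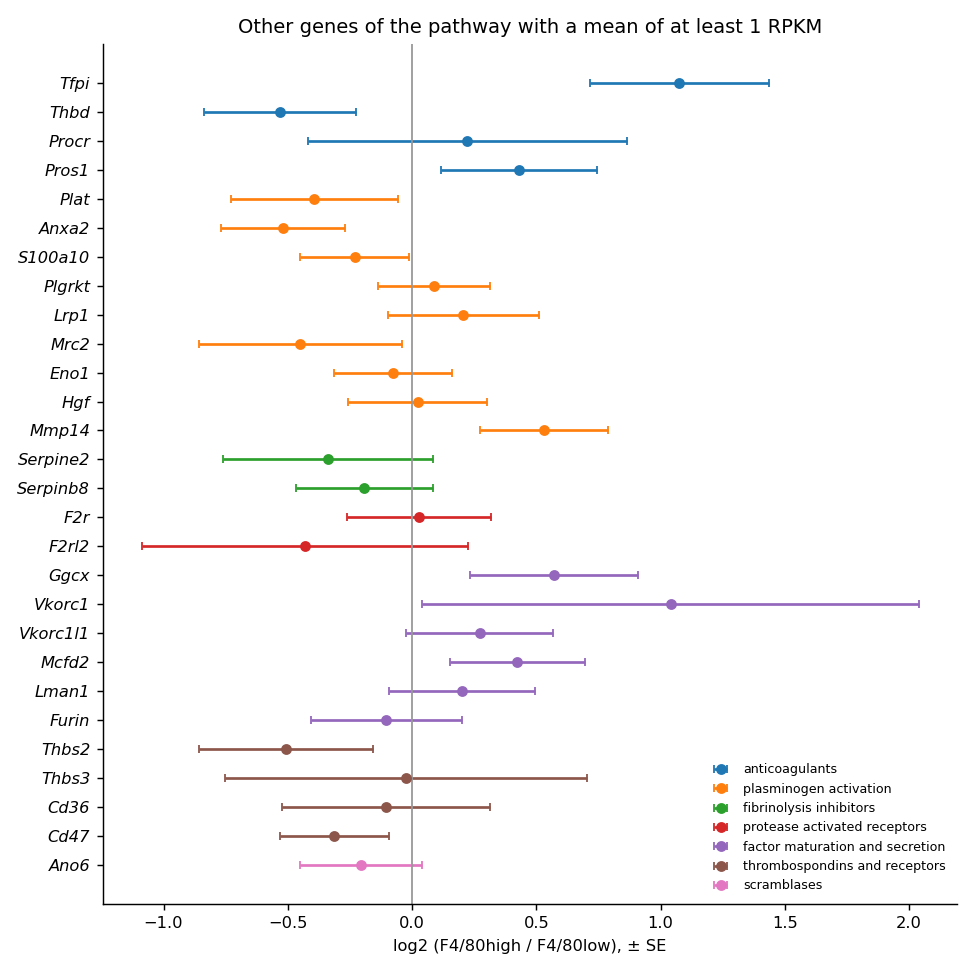
Log2 ratio of F4/80high to F4/80low from the edgeR fit with batch (horizontal axis, bars are ± SE) for the tested pathway genes with a mean of at least 1 RPKM that are reported here, colored by list. Tfpi, at 1.08, and Vkorc1, with a much wider error, lie farthest to the right, and Thbd, at -0.53, lies farthest to the left.

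How the genes varied together is described by Pearson correlations of log2 levels over the 6 libraries, which share batch and subset, so no test is given. F5 was closest to Serpinb2 (r = 0.95) and F10 to Thbs1 (r = 0.93), with r = 0.90 between F5 and F10. F13a1 ran against Serpinb2 (r = -0.83) and F5 (r = -0.78), and Plau against F7 and F3 (r = -0.91 for each). Among 10072 genes of at least moderate level, the profiles most like that of F10 were those of Ahr (r = 0.98), Lrrfip1 (r = 0.98) and Rasgrp4 (r = 0.97). Bin3, Nme7 and Dach1 were closest to F5, Rin3, Arhgap15 and Syne3 to Serpinb2, and Dna2, Stat5b and Adipor1 to Thbs1, with r of 0.98 to 1.00.

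For the genes that differed between the batches, Pgm2l1, Dmxl1 and Ints2 were closest to Plau, and Gm2a, Eif4g3 and Notch2 to Plaur. Taok3, Ltf and Mboat7 were closest to F3, and Parl, Lpcat2 and Rsu1 to F7. Sypl, Tmem33 and Lrp1 were closest to F13a1, and Lrp1, a clearance receptor for urokinase bound to its inhibitor, was itself on the pathway list.

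The other genes lie at chr3:121723537-121735048 (F3), chr1:164151838-164220277 (F5), chr13:36867178-37050244 (F13a1, minus strand), chr14:20836660-20843385 (Plau), chr7:24462484-24475968 (Plaur), chr1:107511423-107535478 (Serpinb2) and chr2:118111876-118127133 (Thbs1), in GRCm38 and on the plus strand except F13a1. F5, Serpinb2 and Thbs1 each overlap a second gene of the tables, which can share reads with them. The overlapping genes held few counts over the 6 libraries, 161 for Gm16548 at F5, 91 for Serpinb10 at Serpinb2 and 22 for Gm29233 at Thbs1.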

How the data were processed

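RNA from sorted F4/80high and F4/80low TAMs was sequenced from poly-A libraries, 3 for each subset. The authors deposited counts of reads for each gene, not normalized, with gene lengths, 1 table for each library; the aligner, annotation and strand setting are not given in the sources used here. Groups and replicate numbers came from the sample labels. The batches are those drawn in the study's principal component plot. Nothing says which animals were pooled, and p-values measure the spread between the libraries.

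Gene IDs were matched to GENCODE M21 (99.4% found). Protein-coding genes with at least 10 counts over the libraries were fitted with edgeR 4.0.16 in R 4.3.3 (TMM, quasi-likelihood test, batch as a term, Benjamini-Hochberg adjustment). CPM are counts over the TMM-scaled library size, RPKM are CPM per kilobase, and TPM were made over all features. Correlations were limited to genes whose log2 CPM averaged 2 or more. A count of 3 was worth 0.0583 to 0.342 CPM in a library. The alternatives were DESeq2 1.42.0, RLE and library-size scaling, other filters and gene sets, no batch term, the replicate block and leaving out libraries. The scripts were tested on simulated data. Deviations of same-numbered libraries from their subset means correlated at 0.74, 0.73 and 0.91. Libraries of different numbers were not compared, and the batch difference enters each value, so the pairing of replicates 1 and 2 was not tested. The pairs follow the replicate numbers of the labels.

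The genes and the pathway and marker lists were chosen with earlier results of these data known. The named pathway genes were those with an unadjusted p under 0.05 (up to 3 in each direction in each list), any called, and the highest per length in each list; some of these are not reported here. F2, Plat, Vwf and the single markers were named after their values were seen. For each of the 9 genes, the 3 genes with the highest correlation were named.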

Additional observations from a re-analysis of the deposited data

How the results depend on the processing

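Between the subsets, edgeR called 0 genes (1113 with an unadjusted p under 0.05), DESeq2 150, the replicate block 76, and leaving out 1 library 0 to 57, the highest without F4/80high replicate 1. Of the 9 coagulation and fibrinolysis genes, DESeq2 called 3, the replicate block 1 (F10) and leaving out 1 library 0 to 1, F10 without F4/80high replicate 1. Among these 9 genes the block changed no other call. Of the other pathway genes, 0 were called under each alternative. Leaving out 1 library put the genes called between batches at 3650 to 5579 and the members among them at 2 to 6. The log2 fold change of Eno1 (-0.08) ranged from -0.31 to 0.067, turning positive without F4/80high replicate 1, when 1 library was left out. That of F2r turned to -0.013 with the replicate block and -0.10 without both libraries of experiment 3, and ranged from -0.24 without F4/80high replicate 1 to 0.26 without F4/80high replicate 2. Neither gene was called. The cause of these changes was not tested. In TPM the order of the 9 genes by mean level over the 6 libraries was the same as in RPKM. Batch 2 was the shallowest, which limits F3 and F7 most.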
